A study of Drosophila melanogaster with 66 samples.

Results

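The 6375 regions described here are stretches of the male Drosophila melanogaster genome at nuclear cycle 14 that were enriched for the protein CLAMP and that no male CLAMP region at 2-4 h overlapped. They were chosen by presence in the male cycle 14 CLAMP list and by sharing no base pair with the male 2-4 h CLAMP list, and they made up 76.1% of the 8377 cycle 14 regions on the chromosome arms X, 2L, 2R, 3L and 3R. The other 2002 regions, which were found again at 2-4 h, serve as the comparison. The same regions were nearly missing from the other CLAMP lists. No region of the 9 other CLAMP lists overlapped 6171 of the 6375 (96.8%). The male 2-4 h list is among these 9 and is fixed at 0 by the rule. In each of the other CLAMP lists 80.5% to 96.0% of the regions overlapped the male 2-4 h list. Few of their regions could therefore overlap one of the 6375, so the near absence largely follows from the rule. The same 6171 were all such regions among the 8377, because every region found overlapped at least the male 2-4 h list. Among the 6375, 69 (1.08%) overlapped a male cycle 13 CLAMP region, against 19.8% of all male cycle 14 regions. They are therefore called regions not listed at 2-4 h, and not regions that were lost.

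CLAMP, a maternally supplied zinc finger protein, recognises GA repeats on all chromosomes and recruits the male-specific lethal (MSL) complex to the male X chromosome. The MSL complex carries the subunit MSL3 and the acetyltransferase MOF, which deposits the histone mark H4K16ac on X-linked genes and so raises their transcription in males. In the embryo CLAMP acts before and during the first wave of zygotic transcription, at the end of the rapid nuclear divisions.

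Chromatin immunoprecipitation followed by sequencing had been done on embryos of 1 sex at nuclear cycles 11, 12, 13 and 14 and at 2-4 h, and 25 lists of enriched regions were used, 10 for CLAMP, 10 for H4K16ac and 5 for MSL3 (males only). Sex was set by the father. Fathers of male embryos carried the X chromosome 19-3, yw, Rsp[s]-B[s] with SPSD/SD72, a meiotic drive combination, and fathers of female embryos carried the same SPSD/SD72 beside a duplication, Dp(2:y) CB25-4, with y+ and Rsp[s]B[s]. All mothers were yw virgins with attP2{PCNA-EGFP}, a green nuclear marker by which embryos from 0 to 4 h lays at 24 degrees C were sorted by hand. Samples of cycles 11 to 14 were pools of 200 embryos, and 3 µL of rabbit antibody is given for CLAMP. The regions thus average over whole embryos, and fewer nuclei with a bound site cannot be told apart from weaker binding in each.

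The male cycle 14 CLAMP list stood apart from the other CLAMP lists. Of its regions on the arms 23.9% were found at male 2-4 h, whereas in each of the other 8 CLAMP lists 80.5% to 96.0% were, so the same rule gave 349 regions in the male cycle 13 CLAMP list and 36 in the female cycle 14 list of 523 regions. Every value below rests on this 1 list, filed under replicate 1; replicate 2 was not analysed here, and whether it would share these regions was not tested. Read depth was unknown, a region missing from a list is not shown to be unbound, and no spread between replicates could be had. No test of replicates was therefore possible. The 95% intervals are exact (Clopper-Pearson) and cover counting error only, for regions that share 1 library.

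The regions not listed at 2-4 h were weaker and narrower than those found again. Fold enrichment, the peak caller's ratio of signal to local background in the authors' list, had a median of 4.64 (10th to 90th percentile 3.27 to 7.81, highest 22.5), against 5.22 (3.38 to 12.1, highest 50.5) at the regions found. Fold of 10 or more was held by 256 of the 6375 (4.02%) and by 313 of the 2002 (15.6%). The share not listed at 2-4 h was 14.0% (95% interval 7.87% to 22.4%) among the 100 regions of highest fold, 43.4% among the highest 500 and 62.5% among the highest 2000. The strongest regions of the list were thus mostly found again, and those of its middle and lower range were not.

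Widths had a median of 263 bp (interval 261 to 266 bp) and ranged from 200 to 3793 bp, against a median of 312 bp at the regions found. Of the regions not listed at 2-4 h, 42.3% were narrower than 250 bp, against 27.0% of those found. More than 1 summit was called in 5.80% and in 7.64%.

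**Figure D1:**
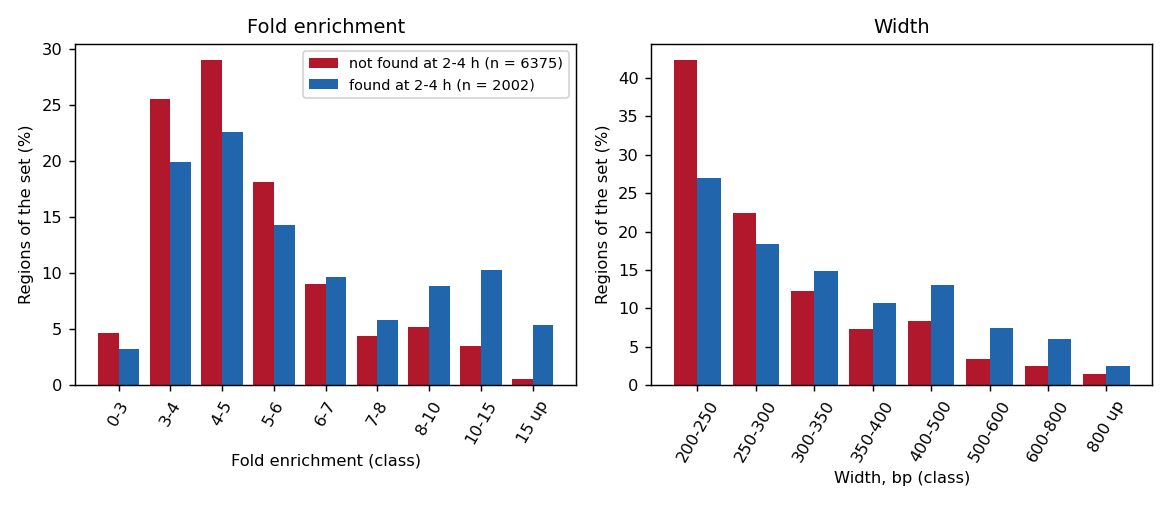
Percent of each set of male cycle 14 CLAMP regions by class of fold enrichment (left) and of width in bp (right), for regions not found at 2-4 h and regions found. Regions not found pile up at fold 3 to 6 and under 300 bp, and regions found hold more of every class from fold 8 up.

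X held 955 of the regions not listed at 2-4 h (14.98%, interval 14.1% to 15.9%) and 453 of those found (22.6%). Of all 8377 male cycle 14 regions it held 1408 (16.8%), and it makes up 23.5 of the 132.5 Mb of the arms. The density of the regions not listed was 40.6 per Mb on X, the lowest of the 5 arms, and 46.4 to 52.5 per Mb on the others. That of all male cycle 14 regions was 59.8 per Mb on X and 59.1 to 67.9 on the others. Fold had a median of 4.64 on X and 4.61 on the autosome arms, with a highest value on X of 13.5.

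The regions not listed at 2-4 h coincided with the male cycle 13 lists of H4K16ac and MSL3. Among the 6375, 3000 (47.1%, interval 45.8% to 48.3%) overlapped a male cycle 13 H4K16ac region, against 555 of the 2002 found (27.7%, 25.8% to 29.7%) and 42.4% of all male cycle 14 regions. MSL3 regions of male cycle 13 overlapped 3924 (61.6%, 60.4% to 62.8%), against 637 of those found (31.8%) and 54.4% of all. These lists covered 4.71% and 12.2% of the arms. The male cycle 13 MSL3 list held 15113 regions on the arms. The other MSL3 lists held 31 to 1417 and covered at most 2.63% of the arms. Shares of MSL3 lists of such unlike size cannot be compared between stages. The H4K16ac difference lay between 16.8 and 22.7 percentage points on each of the 5 arms, and the MSL3 difference between 15.6 on X and 37.5 on 3L.

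In the other direction, 20 of 23 lists overlapped a smaller share of the regions not listed at 2-4 h than of the regions found. The remaining 3 were the male cycle 13 lists of H4K16ac and MSL3 and male cycle 14 MSL3, at 4.24% against 4.196% (4.23% of all). All other CLAMP lists are among the 20. Their lower share largely follows from the rule, as 80.5% to 96.0% of the regions in each overlapped the male 2-4 h list. The other CLAMP lists held 0.0628% to 1.73% of them, the highest share being that of female 2-4 h CLAMP, which held 97.3% of those found. H4K16ac of male cycle 14, the mark at the same stage and sex, overlapped 21.8% against 31.0%, with 24% of all male cycle 14 regions. By 2-4 h, male H4K16ac overlapped 13.6% against 45.3%. Female H4K16ac lists held 6.10% to 14.5% of the regions not listed and 23.3% to 45.6% of those found, and female cycle 13 H4K16ac held 11.8% against 26.9%. The coincidence with H4K16ac was therefore highest in 1 sex at 1 stage, which preceded the stage at which the regions were listed.

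**Figure D2:**
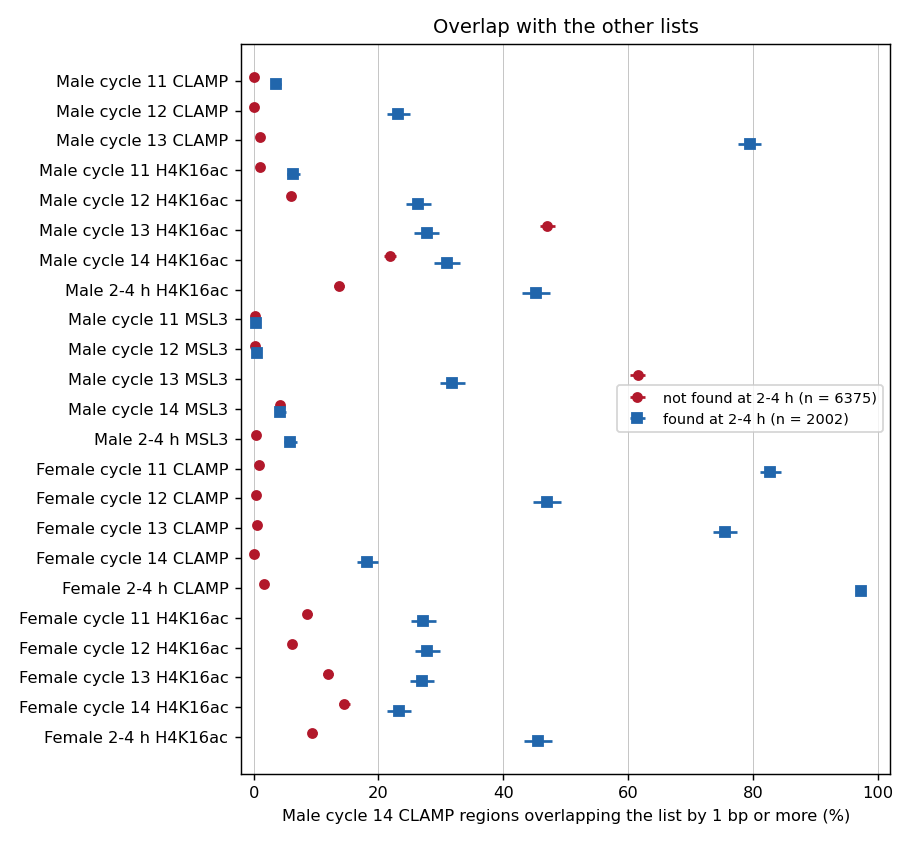
Percent of male cycle 14 CLAMP regions that overlapped each of 23 other lists by at least 1 bp, with exact 95% intervals of counting; circles are regions not found at 2-4 h and squares regions found. The circles lie well to the right of the squares at male cycle 13 H4K16ac (47.1% against 27.7%) and male cycle 13 MSL3 (61.6% against 31.8%) only.

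Both cycle 13 lists met at 2335 of the regions not listed at 2-4 h (36.6%), H4K16ac alone at 665, MSL3 alone at 1589 and neither at 1786 (28.0%), whereas 55.0% of the regions found had neither. The fold of these classes had medians of 4.86, 5.28, 4.23 and 4.57. Where they met H4K16ac, the centre of the cycle 14 region lay a median of 136 bp from that of the cycle 13 region, and 45.8% lay wholly inside it. Of the 7277 cycle 13 H4K16ac regions, 2594 (35.6%) overlapped a region not listed at 2-4 h. Those 2594 had a median H4K16ac fold of 4.44, and 33.2% of them overlapped male H4K16ac at 2-4 h, against 65.8% of the 4247 that met no male cycle 14 CLAMP region. H4K16ac of male cycle 12 had overlapped 18.7% and 51.99%.

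How firm these shares are depends on the strength of the cycle 13 regions. Of the male cycle 13 MSL3 regions 218 of 15113 (1.44%) had a −log10 q of at least 5, and with these alone the overlap was 1.35% of the regions not listed at 2-4 h and 1.45% of those found, so the MSL3 difference was no longer seen. With the 1972 cycle 13 H4K16ac regions of that strength the overlap was 19.6% against 12.9%, a difference of 6.71 percentage points in place of 19.3.

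Among the regions not listed at 2-4 h, those of highest fold coincided with cycle 13 H4K16ac most. When all male cycle 14 regions were split by fold into 5 classes of about equal size, the regions not listed at 2-4 h overlapped male cycle 13 H4K16ac at 41.0%, 41.2%, 38.5% and 46.1% in the lower 4 classes and at 75.2% (interval 72.4% to 77.8%) in the highest. The regions found stayed between 23.4% and 33.2% in all 5 classes, with 28.8% in the highest. MSL3 overlap had no such order, at 72.4% in the lowest class, 52.6% in the middle and 69.1% in the highest. The difference in H4K16ac also went with width, at 9.40 percentage points in the narrowest of 3 equal classes of regions, 21.5 in the middle and 35.9 in the widest.

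**Figure D3:**
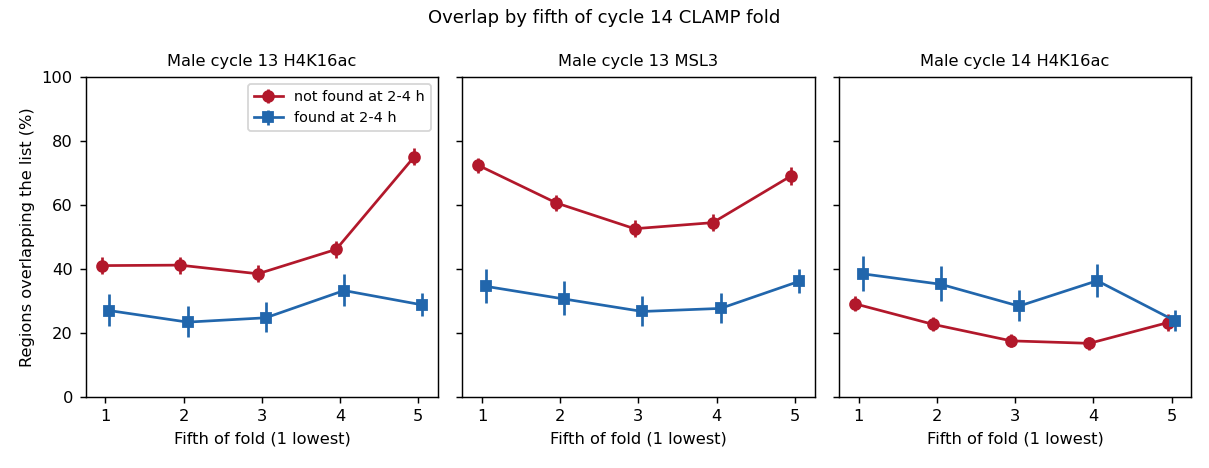
Percent of regions that overlapped male cycle 13 H4K16ac (left), male cycle 13 MSL3 (middle) and male cycle 14 H4K16ac (right), by class of fold of all male cycle 14 CLAMP regions (1 lowest, 5 highest), with exact 95% intervals of counting. For regions not found at 2-4 h the left curve is near 40% and ends at 75.2%, and the regions found stay under 40% throughout.

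The regions were divided by their distance to the nearest male 2-4 h CLAMP region. That region was within 500 bp for 675 (10.6%), within 1000 bp for 1241 (19.5%) and within 10000 bp for 4787 (75.1%), with a median gap of 3934 bp. Midpoints lay within 500 bp for 6.79%, within 1000 bp for 17.0% and within 10000 bp for 74.8%, and of the bases outside the 2-4 h regions 7.65%, 14.3% and 63.6% did. H4K16ac of male cycle 13 overlapped 70.4% (interval 66.8% to 73.8%) of the 675 nearest, 57.4% of the 566 at 500 to 1000 bp, 53.3% of the 2376 at 1000 to 5000 bp, 39.5% of the 1170 at 5000 to 10000 bp and 29.7% (27.4% to 32.0%) of the 1588 beyond 10000 bp. H4K16ac of male cycle 14 went from 51.9% to 3.59% over the same classes and that of male 2-4 h from 49.9% to 2.71%. Female cycle 13 H4K16ac overlapped 43.9% of the nearest class and 0.882% of the farthest, where the male cycle 13 list still held 29.7%. Median fold was about level, from 4.49 to 4.68. When regions within 500 bp of a 2-4 h region were counted as found, the difference in cycle 13 H4K16ac between regions not listed and found fell from 19.3 to 5.82 percentage points.

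**Figure D4:**
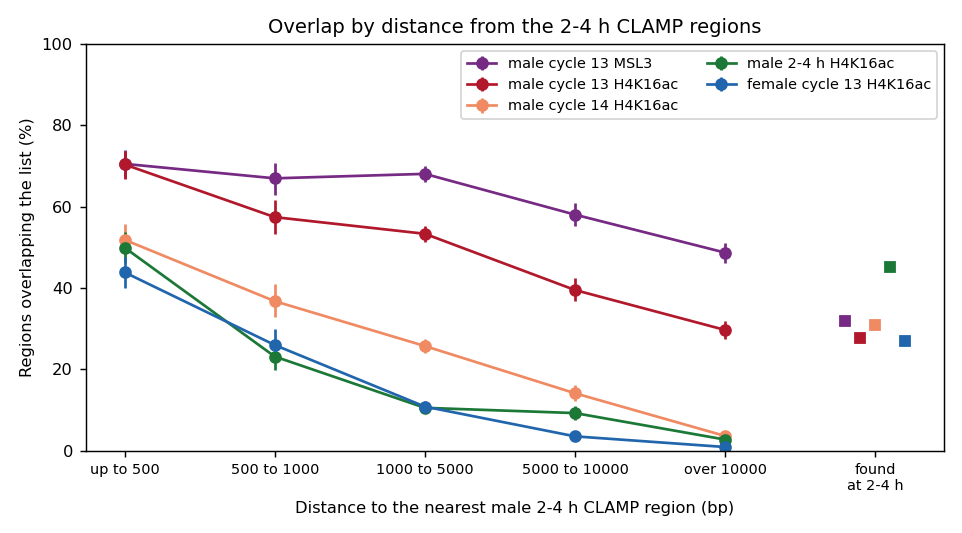
Percent of regions that overlapped 5 lists, by distance in bp to the nearest male 2-4 h CLAMP region (circles, regions not found at 2-4 h, exact 95% intervals of counting) and for regions found (squares). All curves fall with distance from the nearest class to the farthest, apart from a small rise of MSL3 between 500 to 1000 bp (67.0%) and 1000 to 5000 bp (68.1%).

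The regions not listed at 2-4 h lay mostly inside genes, as did the regions found, and few lay close to a gene end. A gene body of any type held the midpoint of 4962 (77.8%) and of 73.6% of those found, against 69.4% of the bases of the arms. Protein-coding bodies held 75.3%, against 70.1% of those found and 67.1% of bases, with a difference of -1.37 to 11.6 percentage points on single arms. The difference of 4.26 points for genes of any type was 0.187 when regions within 500 bp of a 2-4 h region were counted as found. Only 195 (3.06%, interval 2.65% to 3.51%) were centred within 250 bp of a protein-coding gene end, where 16.2% of the regions found and 8.56% of all bases lie. Within 500 bp the shares were 10.5%, 29.3% and 15.1%. Within 5000 bp they were 60.5%, 69.8% and 55.3%, so the regions not listed were then above the share of bases. Start and end of a gene were not told apart, as the table of genes gives no strand. The median distance to a gene end was 3364 bp, against 1579 bp. Outside genes, the 1413 regions lay a median of 3479 bp from the nearest gene end and the 529 found lay 691 bp away.

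**Figure D5:**
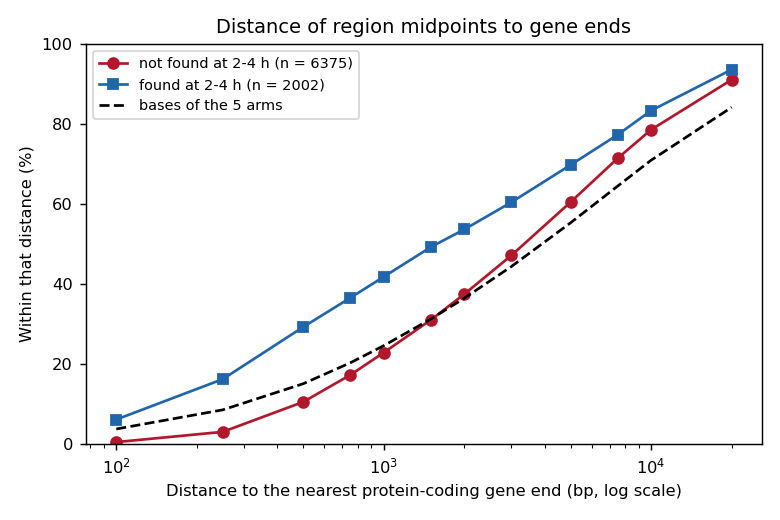
Cumulative percent of region midpoints, and of bases of the 5 arms, within a distance in bp (log scale) of the nearest protein-coding gene end. Regions not found at 2-4 h lie below the line of all bases up to 1500 bp and regions found lie above it at every distance drawn.

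Within genes of at least 5 kb the regions were spread almost evenly. From the gene ends to the centre, 5 equal zones held 20.8%, 22.7%, 20.6%, 18.0% and 17.9% of 3876 regions, whereas the outermost zone held 36.4% of the regions found. The regions without a gene end within 500 bp still overlapped cycle 13 H4K16ac at 45.5%.

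Of 13842 protein-coding genes 2675 (19.3%) had such a region in the body and 1165 (8.42%) a region found at 2-4 h. Over genes of all types the share was 16.4%. The share went with gene length, from 6.999% of genes up to 2 kb to 28.8% of genes of 5 to 10 kb and 85.0% of genes over 50 kb. Per Mb of gene body the density was level, between 41.7 and 61.9 in all length classes. Both kinds of region were present in 664 genes, 24.8% of the genes with a region not listed at 2-4 h and 57.0% of those with a region found, and these genes had a median length of 19608 bp against 2151 bp for all protein-coding genes. Most of the genes had few: 1495 held the midpoint of 1 region, 752 of 2 to 4, 153 of 5 to 9 and 32 of 10 or more.

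The genes with the most regions were long. Rbp6, which encodes an RNA-binding protein, had 28 in 179.4 kb on 3L, of fold 2.78 to 8.02. Of these 6 overlapped cycle 13 H4K16ac and 14 overlapped MSL3. The cell adhesion gene kirre, which is needed for muscle fusion, followed with 24 in 394.1 kb of X, Mur2B with 21 and the nuclear receptor gene Hr4 with 17, both on X. The translational repressor gene pum had 16, jing 15, the POU factor gene pdm3 14, the teneurin gene Ten-a 14, the RNA-binding gene bru3 13 and the mesoderm regulator twi 12, over a span of 62.95 kb in the table of genes. All 10 genes also held 1 to 5 regions found at 2-4 h. Hr4 had 10 of its 17 on cycle 13 H4K16ac and bru3 1 of its 13.

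Per kb, the densest gene of at least 5 kb was CG13921, with 6 regions in 5.48 kb of 3L. All 6 lay on both cycle 13 lists, and 83.6% of its body was covered by male cycle 13 H4K16ac. Cpsf6, which encodes a factor of pre-mRNA cleavage, had 4 with folds up to 16.3, all on H4K16ac. Col4a1, which encodes a collagen IV chain, had 5 with folds of 4.39 to 14.0, all on both lists. The gap gene hb had 4, of fold 3.79 to 5.22, and Muc91C had 4, of which 2 lay on H4K16ac.

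The regions of highest fold overlapped the same pair of male cycle 13 lists. In the highest of the 5 fold classes, 75.2% of the regions not listed at 2-4 h overlapped H4K16ac and 69.1% overlapped MSL3. All 10 regions named by fold, from 17.2 to 22.5, overlapped male cycle 13 H4K16ac at folds of 5.997 to 13.0 in that list and overlapped male cycle 13 MSL3, and 1 of the 10 met another CLAMP list. The strongest lay in dia, which encodes a formin that assembles actin for cytokinesis and cellularisation, at chr2L:20764568-20765080 (dm6), 513 bp wide and 3229 bp from the nearest end of the gene. Its fold was 22.5, 41st in the list, and of the 24 other lists it met male cycle 13 H4K16ac (fold 12.3) and male cycle 13 MSL3 (2.96) and none besides. The nearest 2-4 h CLAMP region was 3422 bp away.

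Abl, which encodes a tyrosine kinase of the actin cytoskeleton, held the next, at chr3L:16646781-16647268, with fold 22.3. It met 9 other lists, among them male cycle 13 CLAMP (2.40) and H4K16ac of male cycles 13 (13.0) and 14 (3.19), and lay 423 bp from a 2-4 h CLAMP region. The others lay in CG42260 (fold 19.0), CG34357 (18.9), CG42342 (18.1), Ebp (18.1), dysc (17.3), CG34227 (17.3), pygo (17.2) and CG34409 (17.2). The Wingless pathway gene pygo, which encodes a nuclear co-activator, held the widest region within a gene, 2172 bp at chr3R:31577373-31579544, with 4 summits. It met male H4K16ac of cycles 13 (6.30) and 14 (2.45) and female H4K16ac of cycles 12 (4.42) and 13 (2.75). The region in dysc, which encodes a scaffold protein of neurons, met the male cycle 13 lists alone (H4K16ac 9.10, MSL3 3.02).

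On X the highest folds were lower. The region in futsch, which encodes a microtubule-associated protein of neurons, had fold 13.5 and met male cycle 13 H4K16ac (7.75) and MSL3 (2.85) only. That in fs(1)K10, a gene of egg polarity, had fold 13.5 and met 10 other lists, all of them H4K16ac or MSL3, among them male cycle 14 MSL3 (2.07). The regions in CG12075 (13.1), RhoGAP19D (12.7) and lcs (12.5) met 0, 2 and 1 of the other lists. In all, 4 of these 5 lay on male cycle 13 H4K16ac and 2 on male cycle 13 MSL3.

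Of the 8 genes of the MSL complex, roX RNAs and Clamp 2 had such a region, against 19.3% of all protein-coding genes, and 2 a region found. From the length class of each gene, 1.46 of the 8 would have had such a region. None lay in msl-1, msl-2, msl-3, mle or either roX gene, which encode subunits and the noncoding RNAs of the MSL complex, although each of these genes has 1 or 2 male 2-4 h CLAMP regions. The Clamp gene itself had 2, of fold 4.60 and 6.60. The stronger met MSL3 of male cycles 11 (4.40), 13 (2.36), 14 (2.18) and 2-4 h (4.49) but no cycle 13 H4K16ac in males. The gene mof held 1, of fold 3.80, in a body covered at 83.4% by male cycle 13 H4K16ac.

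Genes that pattern the embryo had such regions and regions found at 2-4 h. Among the Hox genes, which set segment identity, 7 of 8 had at least 1 and 8 of 8 a region found. Antp had 12, Ubx 5, Abd-B 5, Scr 4, pb 2, lab 1, abd-A 1 and Dfd 0. The strongest were in Scr (fold 16.9), Abd-B (15.7) and Antp (14.99), each on cycle 13 H4K16ac at folds of 8.45, 4.38 and 9.03 and on cycle 13 MSL3. The region in Abd-B was 87 bp from a 2-4 h CLAMP region. Of 8 pair-rule genes 6 had one, with opa at fold 14.4 and slp2 at 12.8, and of 11 segment polarity genes 8 did, with the Hedgehog receptor gene ptc at 16.9. Median lengths were 30563 bp for Hox, 2440 bp for pair-rule and 9246 bp for segment polarity genes. Of all protein-coding genes, 73.7% of those of 20 to 50 kb, 13.9% of those of 2 to 5 kb and 28.8% of those of 5 to 10 kb had such a region. From the length class of each gene, 5.67 Hox, 1.425 pair-rule and 4.62 segment polarity genes would have had one.

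Of 9 genes of pioneer and GA-binding factors 8 had such a region and 8 a region found. Their median length was 13121 bp, and 50.9% of protein-coding genes of 10 to 20 kb had such a region. From the length class of each gene, 4.30 of the 9 would have had one. The pioneer factor gene zld had one of fold 11.4 on X, with cycle 13 H4K16ac at 8.12 and MSL3 at 3.32, and psq one of 9.50. The region in opa was one of the few in other CLAMP lists, at fold 16.3 in male cycle 13 and 2.89 in female cycle 13. Among 32 genes of the first zygotic wave and cellularisation 11 had one (34.4%) and 13 a region found. Their median length was 1762 bp, and 6.999% of protein-coding genes up to 2 kb had one. The length class of each of the 32 genes gave 5.71. The highest folds were in twi at 10.2, the gap gene kni at 8.34 and run at 6.33. Of 17 Polycomb group genes 8 had one (47.1%), with a median length of 7137 bp and beside 28.8% of protein-coding genes of 5 to 10 kb. The length class of each gene gave 5.16. Of 11 insulator protein genes 1 had one (9.09%, median length 3136 bp). Of 19 cell cycle genes of the mid-blastula transition 5 did (26.3%, 3049 bp), beside 13.9% of protein-coding genes of 2 to 5 kb. From the length class of each gene, the counts would be 1.77 and 4.67, near those seen. The cell cycle region of highest fold was in fzr, an activator of cyclin destruction, at 10.3, and it met female CLAMP of cycle 11 (2.87) and of 2-4 h (7.13) with no H4K16ac list.

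Of housekeeping genes with median lengths up to 2 kb, a class in which 6.999% of protein-coding genes had such a region, 7 of 91 cytoplasmic ribosomal protein genes (7.69%) and 1 of 73 mitochondrial ribosomal protein genes (1.37%) had one. So did 4 of 48 proteasome genes (8.33%), 4 of 53 genes of complex I and ATP synthase (7.55%) and 7 of 43 translation initiation factor genes (16.3%). From the length class of each gene, the counts would be 7.48, 5.84, 3.78, 5.16 and 6.78 in this order. The initiation factor genes were thus near the count that their lengths give. Of 21 nuclear pore genes, with a median length of 2822 bp, 4 had one (19.05%), beside 13.9% of genes of 2 to 5 kb. The length class of each of these genes gave 3.99, and that of each splicing gene below 1.83. The region in RpL13 had fold 8.66 and met 10 lists, all of H4K16ac or MSL3. Of 15 splicing genes 7 had one (46.7%, interval 21.3% to 73.4%) at a median length of 1760 bp, with U2af38 at fold 8.75, SmD3 at 7.16 and SmB at 5.91. Each of these 3 lay on H4K16ac in male cycle 12, 13 and 14, and the SmB region had a cycle 13 H4K16ac fold of 11.3.

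Cuticle protein genes, which are transcribed late in embryonic development, are mostly short. Of 70 Cpr genes 25 (35.7%, interval 24.6% to 48.1%) had a region not listed at 2-4 h and 0 had a region found, which allows a share of up to 4.29%. The median gene was 1094 bp long, and of protein-coding genes up to 2 kb 6.999% had a region not listed at 2-4 h and 1.31% a region found. From the length class of each gene, 7.78 of the 70 would have had a region not listed. The 31 regions had folds of 2.69 to 10.3 with a median of 5.07, led by Cpr97Ea (10.3), Cpr64Aa (9.92) and Cpr49Ab (9.62). Of the 31, 14 lay on cycle 13 H4K16ac, beside 47.1% of all regions not listed at 2-4 h and 42.4% of all male cycle 14 regions. On cycle 13 MSL3 lay 26, beside 61.6% and 54.4%. Odorant and gustatory receptor genes, which serve sensory neurons, had such regions in 2 of 120, at folds of 3.91 (Or22c) and 3.80 (Gr2a). Seminal fluid protein genes had 0 of 47, which allows up to 6.38%. For replication-dependent histone genes it was 0 of 111 (up to 2.70%) and for transfer RNA genes 0 of 295 (up to 1.02%). Of 258 microRNA genes 1 had one (mir-9376, fold 5.77). Median lengths were 516 bp for seminal fluid protein, 529 bp for histone, 73 bp for transfer RNA and 92 bp for microRNA genes. Genes this short offer few bases to overlap, so the 6.999% of protein-coding genes up to 2 kb is no fair measure for them.

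A small remainder behaved as CLAMP sites of other lists. Among the 6375, 144 overlapped 1 other CLAMP list, 31 overlapped 2 and 2 overlapped 6, the most seen. One of these, at chr2L:3395871-3396070, lies 1353 bp from the antisense gene asRNA:TS15 and had fold 3.80 at male cycle 14 against 3.08, 5.61 and 2.99 in males of cycles 11, 12 and 13. The other, in Bro, whose product is a partner of the Runt transcription factor, had 3.62 against 3.50, 4.75 and 2.40. The Sox factor gene D held one with fold 5.40 at male cycle 14 and 12.3 at male cycle 13, and 9 bp separated it from a 2-4 h region. The Trithorax gene trx (4.55) and the phosphatase gene Ptp61F (4.50) held the remaining 2 of the 5 named, each in 5 other CLAMP lists. Fold has no common scale between lists.

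At the border of the rule, the regions in PhKgamma and Pp2B-14D touched a 2-4 h region without sharing a base (0 bp between them) and that in how was 5 bp away, with folds of 4.01, 4.22 and 3.64. The regions just beyond it, in px, sty and CAP, shared 1, 1 and 2 bp, with folds of 4.34, 5.47 and 6.44. The highest regions found at 2-4 h lay between genes near tup (fold 50.5), lncRNA:CR45267 (47.5), Ptx1 (40.4) and Optix (36.1), all but lncRNA:CR45267 homeobox genes. Each met 7 to 9 other CLAMP lists, among them the male 2-4 h list, which is fixed by the rule. They also met cycle 13 MSL3, as did most regions not listed at 2-4 h, and no cycle 13 H4K16ac.

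Along the arms the regions were spread widely, with a median of 48 per Mb block and 3 of 136 blocks without one. The block from 8 to 9 Mb of 2R held the most, 110, with 18 regions found. The first Mb of 3R, next to the centromere, held 94 with 1 region found and 1 protein-coding gene whose lower coordinate lies there, and the widest of all lay there, 3793 bp at chr3R:172523-176315 with 7 summits and fold 8.05. It met male cycle 13 MSL3 (2.55) and no H4K16ac list. The second widest, 2236 bp at chr3R:499084-501319 with fold 7.18, met the same list alone (2.74).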

How the data were processed

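Per the submitters' processing notes, Bowtie2, Picard, SAMtools 1.9, MACS2 2.1.1 and the build dm6 were used; settings, the control library and pooling are not given in the sources used here. Each of 25 groups had 1 deposited list. In these lists the authors deposited a fold enrichment (a ratio), a −log10 p and a −log10 q, and a score, found here to be −log10 q times 10 with decimals dropped; the lowest −log10 q in the male cycle 14 list was 2.02. The authors also deposited a summit offset in bp for narrow lists (another value, used for 1 alternative). Names inside the lists hold "BR1" for male cycle 14 CLAMP, "BR2" for male cycle 13 CLAMP and "FULL_NI" at 2-4 h, with no meaning given in the sources used here.

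Regions were counted once, with the highest fold and q of their summits. Overlap was 1 bp, computed with Python 3.11.15, numpy 2.4.6, pandas 2.3.3 and SciPy 1.17.1; the functions were tested on simulated data. Chromosomes 4, Y and M were left out. Genes came from the RefSeq table of Release 6, 17570 genes on the arms, 13842 of them protein-coding, without strand or exons. A region belongs to the longest protein-coding gene whose body holds its midpoint, then to other genes, then to the nearest gene end. Gene counts use any overlap with the body.

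Named are the 10 regions of highest fold and 5 on X, the 10 genes with most regions and the 5 with most per kb (at least 5 kb and 3 regions), the 5 regions in most other CLAMP lists, the 3 widest, the MSL, roX and Clamp genes, up to 3 of highest fold from each of 22 gene lists, the 5 highest regions found (1 of them is not reported here) and 3 regions on either side of the rule. Regions by distance from 2-4 h regions, the cuticle genes and the blocks were singled out after their values were seen. The members and lists were chosen with earlier results of these data known. No sequence was used.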

Additional observations from a re-analysis of the deposited data

Results flagged for a closer look

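A pair of chromosomes outside the arms also held male cycle 14 CLAMP regions above the limit that a count of 0 allows. On chromosome Y there were 8, none of which overlapped any of the 16 male 2-4 h CLAMP regions there, and the female cycle 14 CLAMP list had 0 on Y. On chromosome 4 there were 7, of which 2 were not found among the 166 male 2-4 h regions, and the female list had 1. Neither group of regions enters the values above, and no cause was tested.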

How the results depend on the processing

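Of 81 alternative values for 11 results 47 stayed within the counting interval of the value reported (for the count of regions, within 1.5 times) and 34 moved. Only the differences in cycle 13 H4K16ac and in gene bodies, with 17 and 10 alternatives, could change sign, and 0 did. The count of regions ranged from 5149 to 6559 and their share on X from 14.8% to 15.7%. With cycle 14 regions of −log10 q of at least 5 alone, overlap was 48.4% for cycle 13 H4K16ac, 59.2% for cycle 13 MSL3 and 19.9% for cycle 14 H4K16ac, the share in gene bodies 76.3%, median width 271 bp, median fold 5.02 and the share of protein-coding genes with a region 16.1%, which was 25.4% with 1 kb on either side of the body. With 2-4 h regions within 500 bp counted as found, cycle 13 and cycle 14 H4K16ac were at 44.3% and 18.3%, and the differences from regions found were 5.82 percentage points for cycle 13 H4K16ac and 0.187 for gene bodies. With at least 50% of the region covered, or its midpoint inside the other list's region, cycle 13 H4K16ac was at 44.5% and 44.9%, cycle 13 MSL3 at 56.7% and 56.96% and cycle 14 H4K16ac at 19.5% and 19.8%. Without X, cycle 13 MSL3 was at 65.3%. Within protein-coding genes alone the share in gene bodies was 75.3%. The cycle 13 H4K16ac difference was 23.5 points when a 2-4 h region had to cover 50%, 9.40 and 35.9 in the narrowest and widest classes, and the gene body difference was 0.512 in the middle class and 9.91 in the widest. Chosen after seeing the data were cycle 13 regions of −log10 q of at least 5 (H4K16ac 19.6%, MSL3 1.35%, H4K16ac difference 6.71 points), leaving out regions within 500 bp of a gene end (45.5%, difference 22.1) and classes of fold (14.1, 13.8, 12.9 and 46.4 points in classes 1, 3, 4 and 5). The cause of these moves was not tested.

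Each group had 1 list and no read counts, so depth, replicate spread and the power to list a region at 2-4 h are unknown. No paired analysis was possible because the lists carry no replicates to pair. The planned share of GA motifs was not run, as no genome sequence was used here.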
